A study of Mus musculus with 7 samples.

Results

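The large Maf gene Maf, the small Maf genes Maff, Mafg and Mafk, and the partner genes Nfe2l1 and Nfe2l2 are 6 of the 55335 genes counted in neural stem cells (NSCs) of the mouse, which are dividing precursors of neurons and glia, cultured here with EGF and bFGF. The family was selected on the genotype comparison of these same samples, in which Maf was called lower without Smchd1, so the members' levels and fold changes between genotypes are a description and carry no test. RNA was sequenced as nanopore direct cDNA from 4 wild-type (WT) and 3 Smchd1-null samples of the FVB/N strain. The null samples carry the Smchd1MommeD1 allele of Smchd1, which encodes a chromatin protein of the SMC class that takes part in X inactivation and gene silencing, and no other treatment separates the groups. WT replicate 2 and Smchd1-null replicates 1 and 2 were in batch 1, WT replicates 3 and 4 and Smchd1-null replicate 3 were in batch 2, and WT replicate 1 was sequenced in both. The labels do not say whether the samples were separate animals or cultures, so p-values measure the spread between these samples only.

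Maf proteins are basic leucine zipper (bZIP) transcription factors. Maf is a large member with its own activation domain and is known for its roles in the lens, T cells, macrophages and cortical interneurons. The small Maf proteins lack such a domain and pair with cap'n'collar (CNC) factors, among them Nfe2l1 and Nfe2l2, to bind the antioxidant response element. Nfe2l2 drives genes of glutathione, NADPH and quinone metabolism and is held down by Keap1, and Nfe2l1 is cut and released from the endoplasmic reticulum to drive proteasome genes.

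The genes lie on 5 chromosomes of GRCm38. Maf (ENSMUSG00000055435.6) spans chr8:115682942-115707794 on the minus strand with 8241 exonic bases. Maff (ENSMUSG00000042622.14) spans chr15:79346621-79359076 on the plus strand with 2594 exonic bases. Mafg (ENSMUSG00000051510.13) and Nfe2l1 (ENSMUSG00000038615.17) are both on the minus strand of chromosome 11, at chr11:120625117-120633600 with 5613 exonic bases and at chr11:96817414-96829968 with 5441. Mafk (ENSMUSG00000018143.10) is at chr5:139791513-139802653 on the plus strand with 3901 exonic bases, and Nfe2l2 (ENSMUSG00000015839.6) at chr2:75675513-75704641 on the minus strand with 3796.

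Because the small Maf proteins resemble each other in their DNA-binding region, the transcripts were compared for stretches that could confuse read assignment. Over the 15 pairs of members, the longest exact run shared by any of their Gencode M21 transcripts was between 11 and 23 bases. The 2 runs of 23 bases lay in coding sequence within 1 exon, and are printed here from the transcripts, in lower case, since these are the longest stretches that a read could match in both genes without a mismatch. Identity over whole transcripts was not computed.
Maff and Mafg, 23 bases, chr15:79357571-79357593 and chr11:120629564-120629586: ggctacgcggccagctgccgcgt
Mafg and Mafk, 23 bases, chr11:120629492-120629514 and chr5:139800307-139800329: cagcaggaggtggagaagctggc
Exons of Mafg shared 124 bases with the same-strand gene Sirt7, which had 711 counts over the 7 samples. Strand could not tell the reads of these 2 genes apart. Exons of Maf shared 440 bases with the antisense gene Gm15655, which had 0 counts in all 7 samples. Mafk shared 169 bases with Tmem184a on the opposite strand, which had 1 count in all. For the overlaps of Maf and Mafk, counting was not stated to use strand. The counts of an overlapping gene do not show how reads over the shared bases were assigned.

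RefSeq promoter windows of 300 bases (GRCm38.p6) were held for 5 of the 6 genes, and were searched on both strands for the core of the antioxidant response element, TGACNNNGC. A match lay in 1 of the 3 windows of Maff and in the 1 window each of Mafg, Mafk and Nfe2l2. None of the 5 windows of Nfe2l1 held one, while 12.4% of all 32851 windows did. The matches are shown with the core in capitals, since this element is the one that small Maf and CNC dimers bind, and each is read along the gene's own strand.
Maff, chr15:79346502-79346525: cgtctcaTGACTCTGCcactggaa
Mafg, chr11:120633753-120633776, core in the opposite direction: tgcaggaGCACGGTCAacccggcg
Mafk, chr5:139791516-139791539, core in the opposite direction: cccggaaGCGGTGTCAgtactggg
Nfe2l2, chr2:75704887-75704910: gcccaccTGACTCCGCcatgcccc
Of the other motifs searched, TGAGTCA, the core of the TPA response element (5.20% of all windows), was in none of the members' windows. The Maf half-site TGCTGA (19.5% of all windows), which can share its last 3 letters with TGAGTCA, was in the window of Mafk and in 3 of those of Nfe2l1. These matches describe the letters of the windows and do not show binding.

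The libraries held 2741820 to 7736498 counts in 20713 to 26992 genes, so that 3 counts stood for 0.399 to 1.13 counts-per-million (CPM). Smchd1 itself averaged 63.4 ± 9.09 CPM over the WT samples (SD, n = 4) and 16.1 ± 2.97 CPM over the samples with the Smchd1MommeD1 allele (SD, n = 3), 25.5% of the WT mean, with every null sample below every WT sample. All 12 neural stem cell markers were detected in every group, with summed levels of 9014 to 13931 CPM in WT and 8579 to 10135 CPM in null samples. Fabp7 was the largest part of these sums, with means of 6603 CPM in WT and 5171 CPM in null samples. By estimate 10 of the 12 markers were lower in null samples, with a median log2 fold change of -0.23, beside 49.4% of all genes tested. None passed an adjusted p of 0.25. For 4 of the 12 the unadjusted limma p was under 0.05, as it was for 1843 of the 13305 genes tested. WT replicate 4 stood apart, with 445 CPM for 6 oligodendrocyte markers. The other WT samples had 112 to 124 CPM for these, and the null samples 106 to 127 CPM. WT replicate 4 also had 77.3 CPM for 6 neuron markers against 29.6 to 37.6 CPM in the other WT samples. Its neural stem cell marker sum was the highest too, 13931 CPM against 9014 to 10816 CPM in the other WT samples. This sample had the lowest sample weight in the fit, 0.447, where the others had 0.654 to 2.03. Smchd1-null replicates 1 and 2, of batch 1, had weights of 2.03 and 1.83, and replicate 3, of batch 2, had 0.674. The fitted genotype fold changes therefore lean on the null samples of batch 1.

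Maf was the member that differed most between the genotypes. Its level was 47.6, 32.4, 28.6 and 55.6 CPM in WT replicates 1 to 4 (195, 146, 109 and 324 counts) and 12.8, 12.4 and 24.5 CPM in Smchd1-null replicates 1 to 3 (34, 93 and 113 counts). All 3 null samples were below all 4 WT samples, but the gap was narrow in batch 2, where the counting interval of WT replicate 3, 23.5 to 34.5 CPM (95% exact Poisson, counting error only), overlapped that of Smchd1-null replicate 3, 20.2 to 29.4 CPM. The mean was 41.0 ± 12.7 CPM in WT and 16.5 ± 6.87 CPM in null samples (SD, n = 4 and n = 3), which is 40.3% of WT, and the fitted log2 fold change of null over WT was -1.45 (SE 0.25).

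The difference in Maf varied with the samples that entered it. Within batch 1 the log2 CPM of null samples was lower than that of WT by 1.34, and within batch 2 by 0.70, with 1 to 2 samples of a group in each. With batch as a second term of the fit the log2 fold change of Maf was -1.09. The highest Maf level was in WT replicate 4, the sample with the highest neural stem cell, oligodendrocyte and neuron marker sums. The log2 fold change of Maf without that sample was -1.36. Maf has known expression in microglia and in interneurons. The 9 microglia markers summed to 0.787 to 2.23 CPM in WT and 0.433 to 1.46 CPM in null samples, with Tmem119, C1qa and C1qb at 0 in every sample. The 10 interneuron markers summed to 4.00 to 12.6 CPM in WT and 8.66 to 10.1 CPM in null samples, with Sst and Slc32a1 at 0. Gad2 and Gad1, which make the transmitter GABA, were the 2 interneuron markers that passed the filter on low counts, with 4.97 and 2.46 CPM in WT and 5.68 and 2.80 CPM in null samples. The part of these markers in the Maf result was not tested. The 5 endothelial markers summed to at most 4.12 CPM in any sample. In bulk samples such as these, fewer cells that express a gene and less of its RNA per cell cannot be told apart.

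The small Maf genes, the dimer partners of the CNC factors, had similar levels in both genotypes. Maff was at 13.4, 20.2, 14.9 and 11.1 CPM in WT and 13.9, 18.1 and 14.1 CPM in null samples, with the null samples inside the WT range. Mafg was at 30.0, 35.8, 25.2 and 22.1 CPM in WT and 40.5, 29.9 and 29.9 CPM in null samples, where only Smchd1-null replicate 1 lay above the WT range. Mafk had 3, 0, 1 and 1 counts in WT and 0, 3 and 5 counts in null samples, at most 1.08 CPM, so it was at or near the floor in both groups and did not pass the filter on low counts. The log2 fold change was 0.14 (SE 0.21) for Maff, from 14.9 ± 3.85 to 15.4 ± 2.38 CPM, and 0.25 (SE 0.18) for Mafg, from 28.3 ± 5.96 to 33.5 ± 6.14 CPM (SD, n = 4 and n = 3).

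The CNC genes were the most abundant and the least variable members. Nfe2l1 was at 116, 117, 112 and 140 CPM in WT replicates 1 to 4 and at 102, 103 and 99.4 CPM in null replicates 1 to 3. The groups did not overlap for Nfe2l1, and WT replicate 4 was again the highest. Its means were 121 ± 12.7 and 102 ± 2.01 CPM (SD, n = 4 and n = 3), with a log2 fold change of -0.20 (SE 0.12). Nfe2l2 was at 154, 154, 166 and 152 CPM in WT and at 140, 165 and 131 CPM in null samples, which overlapped, with a log2 fold change of -0.09 (SE 0.12).

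**Figure D1:**
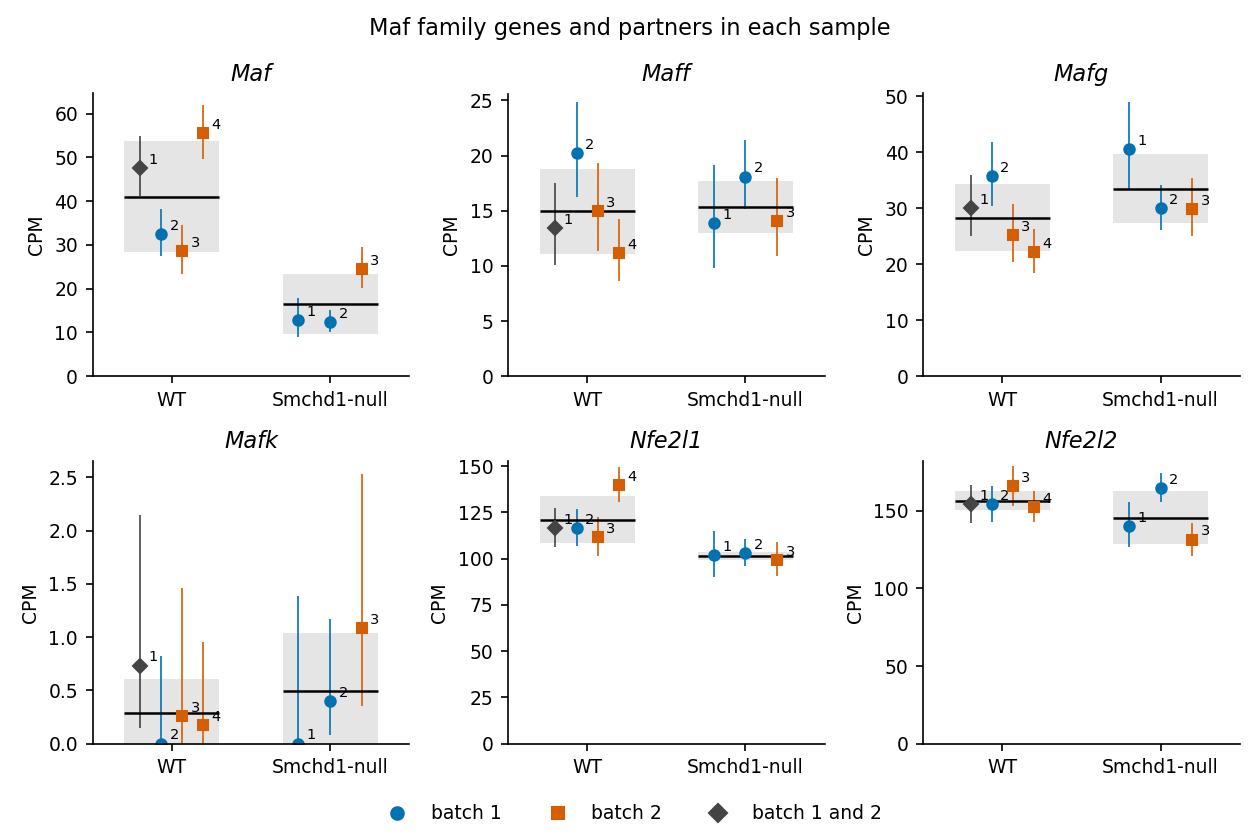
Level of each gene in CPM (vertical axis, from 0) in 4 WT and 3 Smchd1-null samples, numbered by replicate, with colour and shape for batch. Thin bars are 95% exact Poisson intervals of the count, the line is the group mean and the grey band is 1 SD. Maf in null samples lies at 12.4 to 24.5 CPM, below the WT samples at 28.6 to 55.6 CPM, while Mafk stays at or below 1.08 CPM.

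As a description of how the members were chosen, 1 of the 5 members that passed the filter, Maf, was below an adjusted p of 0.05 and also of 0.25 in the genotype fit, beside 0.0902% and 1.08% of the 13305 genes tested. The groups did not overlap for 2 of the 5, Maf and Nfe2l1, both lower in null samples, beside 5.53% of all genes tested. The choice used this contrast, so nothing is read from these shares. Maf stayed past 0.05 in 7 of 18 other settings, and fell out in the other 11. These were edgeR, no sample weights, library size alone, all genes with a count, the batch term, the replicate block, the length trend removed, and leaving out WT replicate 1 or 4 or Smchd1-null replicate 1 or 2.

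**Figure D2:**
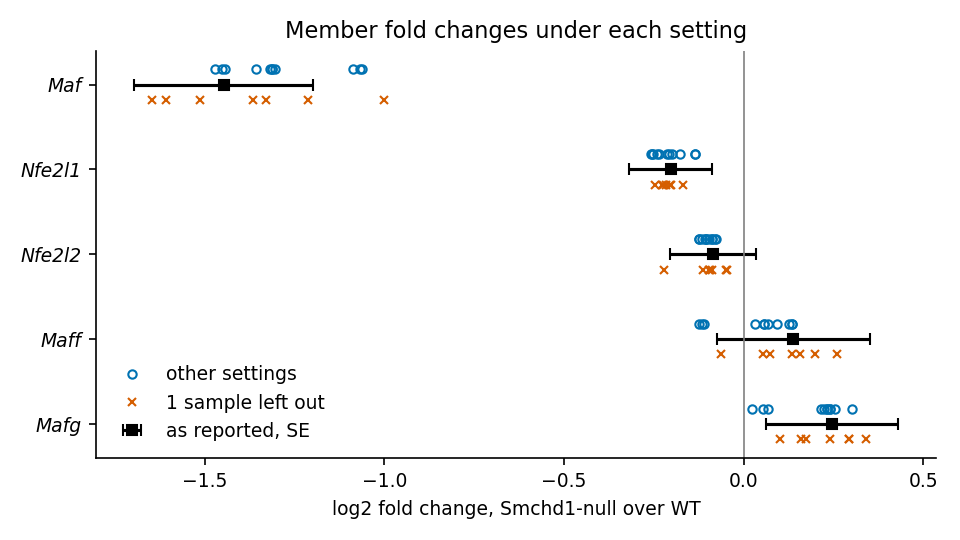
Log2 fold change of the 5 members that passed the filter (horizontal axis, Smchd1-null over WT), with the value as reported and its SE (square and bar), the value under other tests, scalings, filters and covariates (circles) and with 1 sample left out (crosses). Maf lies between -1.65 and -1.001 throughout, and Maff takes both signs.

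Added together, the 6 genes had 362 ± 14.5 CPM in WT and 313 ± 14.5 CPM in null samples (SD, n = 4 and n = 3). Maf supplied 13.1%, 9.03%, 8.25% and 14.6% of that sum in WT replicates 1 to 4 and 4.12%, 3.77% and 8.15% in null replicates 1 to 3, so that the highest null share lay just under the lowest WT share. The small Maf sum was 43.5 ± 9.43 CPM in WT and 49.3 ± 4.76 CPM in null samples, with overlapping ranges, and the CNC sum was 278 ± 10.2 CPM in WT and 247 ± 19.0 CPM in null samples. Counts of Maf per count of small Maf were 0.579 to 1.66 in WT and 0.234 to 0.543 in null samples.

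The spread among WT samples was set beside that of all genes tested, as the coefficient of variation (CV) of CPM over the 4 WT samples divided by the CV that counting error alone gives. The median of this ratio over all genes tested was 2.04. For Maf the CV was 30.9% and the ratio 4.24, above that of 87.0% of genes tested. Maff (CV 25.8%, ratio 2.09), Mafg (21.1%, ratio 2.35) and Nfe2l1 (10.5%, ratio 2.45) were close to the median. For Nfe2l2 the CV was 3.91% and the ratio 1.03, above that of 12.9% of genes tested. These are descriptions of 4 samples with no test. Among the null samples the CV of Maf was 41.5%, carried by Smchd1-null replicate 3, the null sample of batch 2.

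Batch was not used to choose the members, and it was added to the limma fit as a second term. Maf was chosen on the genotype contrast, and genotype was uneven over the batches, so its batch value is a description. None of Maff, Mafg, Nfe2l1 and Nfe2l2 passed an adjusted p of 0.05 for batch 2 over batch 1. Over all genes tested 12.4% did (1652 genes). That background fell to 33 genes with edgeR and 28 without sample weights, where again none of them passed. The log2 difference was 0.52 for Maf (SE 0.23, no test), with the higher level in batch 2. The small Maf genes were lower in batch 2 by estimate, with -0.40 for Maff (adjusted p = 0.212) and -0.34 for Mafg (adjusted p = 0.188). Nfe2l1 and Nfe2l2 had -0.01 (adjusted p = 0.959) and -0.09 (adjusted p = 0.616). These p-values do not show that the members were equal between batches.

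Levels of different genes were compared per kilobase of exon within each sample. Nfe2l2 had 40.0 ± 3.25 CPM per kb (SD, n = 7) and stood above Nfe2l1 with 20.7 ± 2.55 CPM per kb in 7 of 7 samples. Nfe2l1 in turn stood above Maff with 5.83 ± 1.18 CPM per kb in 7 of 7 samples. For both steps the exact two-sided sign-flip permutation test gave an adjusted p of 0.03125, from the smallest p that 7 samples allow, 0.015625. The mean log2 ratio was 0.95 for the first step and 1.85 for the second. On this scale alone Maff and Mafg, with 5.43 ± 1.10 CPM per kb, did not differ beyond their spread (5 of 7 samples, exact permutation adjusted p = 0.406). The null values of Maf were used to choose the family, so its place is given with no p-value. Its steps still counted among the 4 of the adjustment, here and without division by length. Maf had 3.47 to 6.74 CPM per kb in WT and at most 2.97 CPM per kb in null samples, below Mafg in all 3 null samples and in 2 of the 4 WT samples.

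The order among the Maf genes depended on the division by length. Direct cDNA reads are not fragmented, so CPM without that division is itself a measure of molecules. The paper describes gene length as only weakly associated with expression in these data. Without the division Mafg had more reads than Maff in 7 of 7 samples (30.5 ± 6.16 against 15.1 ± 3.06 CPM, exact permutation adjusted p = 0.0208). The place of Maf in CPM differed by group, with 41.0 CPM beside 28.3 CPM for Mafg in WT and 16.5 CPM beside 33.5 CPM in null samples. Against all genes tested, WT levels per kb put Nfe2l2 at percentile 87.1 and Nfe2l1 at 79.4, with Maff at 49.1, Mafg at 45.6 and Maf at 45.3.

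**Figure D3:**
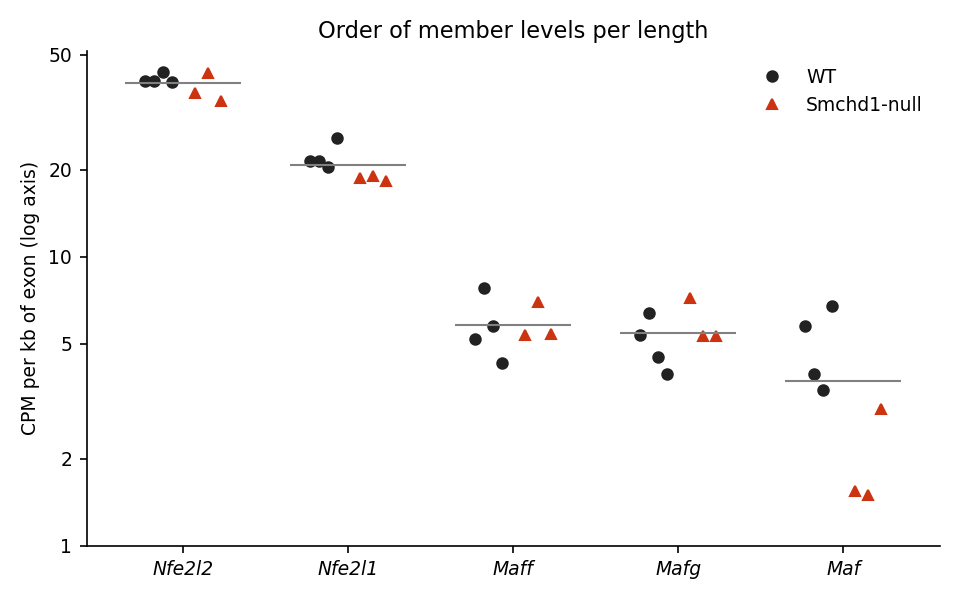
CPM per kb of exon (log axis) of the 5 members that passed the filter, in 4 WT samples (circles) and 3 Smchd1-null samples (triangles), with a grey line at the mean of the 7. Nfe2l2 and Nfe2l1 lie above the 3 Maf genes in every sample, and the Maf points spread the most.

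The genes whose pattern over the 7 samples was most like that of Maf were sought by the root mean square difference of centred log2 CPM, among 9537 tested genes with a mean of at least 10 CPM. The nearest was Kcnn3, a calcium-activated potassium channel, at 0.127, with 13.5 ± 5.04 CPM in WT and 5.68 ± 2.58 CPM in null samples (SD, n = 4 and n = 3). It was followed by Cyfip2, a subunit of the actin-regulating WAVE complex, at 0.234, and Spon1, a secreted matrix protein, at 0.260. Tgfb2, a growth factor of the TGF-beta family, was at 0.265, and Carmil1, a regulator of actin capping, at 0.309. A flat profile would be at 0.768. None of the other members was near, with Nfe2l1 at 0.648 (place 1229), Nfe2l2 at 0.765 (place 3956), Maff at 0.911 (place 7480) and Mafg at 0.950 (place 8072). The 7 samples differ in genotype, batch and depth, and any of these can make profiles alike, so these distances are a description and carry no test.

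Of the related genes, Bach1, a CNC-type repressor that competes for the same elements, had 27.8 ± 5.96 CPM in WT and 21.8 ± 0.60 CPM in null samples (SD, n = 4 and n = 3), and did not pass (log2 fold change -0.30, SE 0.17, limma adjusted p = 0.424). Bach2 had 8.39 ± 1.87 and 8.17 ± 1.02 CPM (log2 fold change -0.03, limma adjusted p = 0.965). The large Maf genes Mafa and Nrl had 17 and 5 counts over all 7 samples, and the CNC genes Nfe2 and Nfe2l3 had 10 and 55, and these 4 did not pass the filter. Of the 55 Nfe2l3 counts, 23 were in WT replicate 4.

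The genes that control or follow the CNC factors were counted in the genotype fit, where 6 genes rose and 6 fell in all at an adjusted p of 0.05. The median log2 fold change of all genes tested was 0.005, and 49.4% of them were lower by estimate. Among the 13 regulators of Nfe2l1 and Nfe2l2, all tested, none passed 0.05 or 0.25, the median log2 fold change was -0.14, and 4 were higher and 9 lower by estimate. The 3 with the smallest p were the enzymes Ngly1 (log2 fold change -0.67, SE 0.24, limma adjusted p = 0.297), which removes N-glycans from Nfe2l1, Syvn1 (-0.83, SE 0.37, limma adjusted p = 0.342), an endoplasmic reticulum ubiquitin ligase, and Gsk3b (-0.32, SE 0.15, limma adjusted p = 0.349), a kinase that marks Nfe2l2 for turnover. Ngly1 was at 16.1, 16.9, 24.4 and 31.0 CPM in WT and 11.3, 12.5 and 20.6 CPM in null samples, so the groups overlapped through Smchd1-null replicate 3. With batch as a second term the log2 fold changes shrank to -0.37 for Ngly1, -0.16 for Syvn1 and -0.09 for Gsk3b, and with 1 sample left out Syvn1 ranged from -1.07 to -0.16 and Gsk3b from -0.41 to -0.17. Keap1, named here after its values were seen because it is the sensor that holds Nfe2l2, had 26.5 ± 4.25 CPM in WT and 26.1 ± 4.95 CPM in null samples (log2 fold change 0.10, SE 0.18).

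Of 26 antioxidant genes known as targets of Nfe2l2, 25 were tested and none passed 0.05 or 0.25. Their median log2 fold change was 0.02, with 16 higher and 9 lower by estimate. Nqo1, a quinone reductase, had the smallest p, with 17.1, 18.4, 29.6 and 19.5 CPM in WT and 8.63, 14.4 and 20.1 CPM in null samples (log2 fold change -0.71, SE 0.26, limma adjusted p = 0.301). That value was -0.43 with batch as a second term. Gclc and Gclm, the subunits of the enzyme that starts glutathione synthesis, had estimates of opposite sign, -0.24 (SE 0.14, limma adjusted p = 0.438) and 0.24 (SE 0.14, limma adjusted p = 0.445). The summed level of the list was 6551 ± 555 CPM in WT and 6557 ± 192 CPM in null samples (SD, n = 4 and n = 3). The largest parts of the sum were Txn1, Prdx1 and Fth1, with means of 2442, 1101 and 1073 CPM in WT. In null samples their means were 2470, 1125 and 1047 CPM, so the sum says little about the less abundant genes.

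All 34 proteasome genes known as targets of Nfe2l1 were tested and none passed 0.05 or 0.25. The median log2 fold change was -0.04, with 15 higher and 19 lower by estimate, and the list summed to 6979 ± 224 CPM in WT and 7170 ± 16.0 CPM in null samples (SD, n = 4 and n = 3). Pomp, the proteasome assembly chaperone, had a log2 fold change of 0.27 (SE 0.11, limma adjusted p = 0.333), and the regulatory particle subunits Psmd8 and Psmd3 had 0.28 (SE 0.13, limma adjusted p = 0.357) and 0.30 (SE 0.14, limma adjusted p = 0.376). With batch as a second term Psmd8 had 0.07 and Psmd3 0.05.

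Other bZIP genes of the AP-1 and ATF groups had a median log2 fold change of 0.35 over the 7 tested of 10, with 6 higher and 1 lower by estimate, and again none passed 0.05 or 0.25. Atf4, the factor of the integrated stress response, was at 202, 219, 221 and 198 CPM in WT and 303, 314 and 197 CPM in null samples. The 2 null samples of batch 1 were above all WT samples and the null sample of batch 2 was below them (log2 fold change 0.45, SE 0.14, limma adjusted p = 0.287). Junb, an AP-1 subunit, had 0.54 (SE 0.20, limma adjusted p = 0.305) and Atf2 had -0.39 (SE 0.19, limma adjusted p = 0.376). With batch as a second term these became 0.27 for Atf4, 0.19 for Junb and -0.02 for Atf2. Without Smchd1-null replicate 2 they were 0.21, 0.31 and -0.13. Without Smchd1-null replicate 3 they were 0.54, 0.62 and -0.52, and Atf4 then passed 0.05 (limma adjusted p = 0.0408), beside 161 of all genes. Batch itself was called at 0.05 for 3 of these 7 genes, for 5 of the 13 regulators, for 3 of the 25 antioxidant genes and for 6 of the 34 proteasome genes, beside the 12.4% of all genes.

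**Figure D4:**
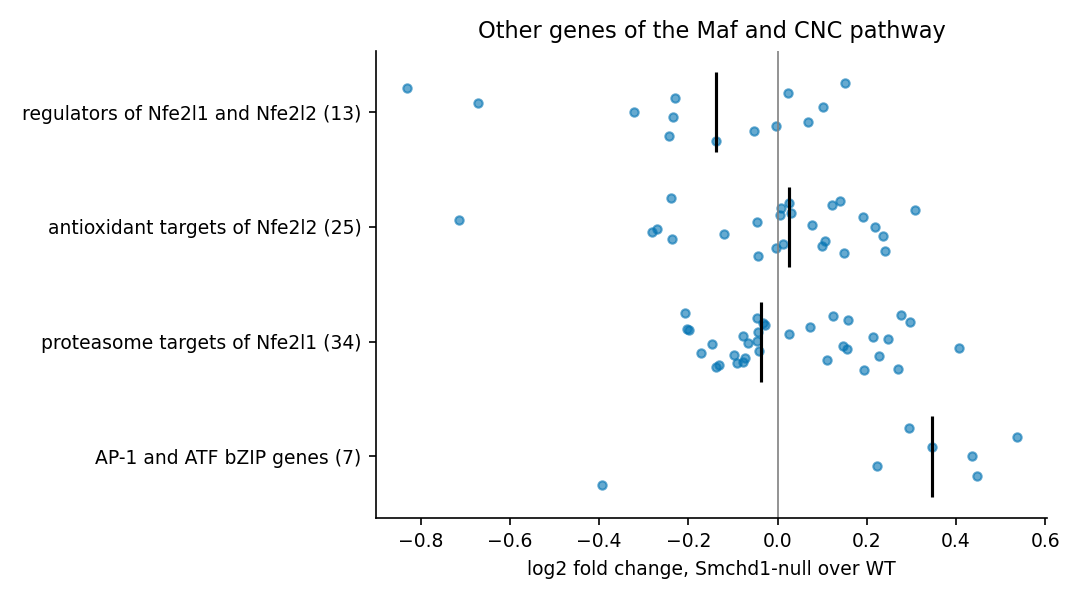
Log2 fold change of each tested gene (horizontal axis, Smchd1-null over WT) in 4 lists of pathway genes, with the number tested in brackets and a black line at each list's median. The medians run from -0.14 for the regulators to 0.35 for the AP-1 and ATF genes, and no gene shown passed an adjusted p of 0.25.

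Genes known to be driven by large Maf proteins in lens, pancreas and T cells were almost silent, with 1 of 9 passing the filter. That gene, Il4, had 13.5 ± 1.42 CPM in WT and 11.2 ± 2.04 CPM in null samples (SD, n = 4 and n = 3), with a log2 fold change of -0.14 (SE 0.21, limma adjusted p = 0.765). The annotated end of Il4 lies 1.01 kb from the end of Kif3a on the other strand, and counting was not stated to use strand.

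Gene length moved with the genotype difference across the genome. Over the 13305 genes tested, Spearman's rho of exonic length and log2 fold change was -0.38, across genes that are not independent replicates. Maf, with 8241 exonic bases, was longer than 83.6% of genes tested, whose median length was 4160 bases. With each sample's trend on length removed, the log2 fold change of Maf was -1.30.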

How the data were processed

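Gene counts of 7 samples (4 WT, 3 Smchd1-null) were used as deposited. Per the study's methods, the authors base-called with Guppy, aligned with minimap2 2.17 to mm10, assigned primary alignments to Gencode M23 genes with featureCounts in long-read mode, and summed the counts of a sample sequenced in both batches. A length in exonic bases, a value of another kind, is deposited beside each count. Identifiers were matched to Gencode M21 (GRCm38) without version, 55154 of 55335.

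Genes were filtered by filterByExpr (13305 kept) and scaled by TMM in edgeR 4.0.16. Fold changes came from voomWithQualityWeights in limma 3.58.1 (R 4.3.3) with genotype as the only term, two-sided with Benjamini-Hochberg adjustment, at thresholds of 0.05 and 0.25. Batch was tested by adding the share of a sample from batch 2. CPM used the TMM-scaled library sizes of the kept genes, and log2 CPM a prior count of 2. The code was tested on simulated counts. edgeR's quasi-likelihood test, DESeq2 1.42.0, other scalings, filters, covariates and left-out samples were the alternatives.

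The members and all gene lists were chosen with earlier results of these data known. Named were the members, Smchd1, further Maf, CNC and Bach genes, up to 3 genes a list by smallest p, the 5 genes nearest to Maf in profile, and genes sharing exons with a member. Protein sequences were not used here. Some items are not reported here.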

Additional observations from a re-analysis of the deposited data

Results flagged for a closer look

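In 3 of 28 comparisons among the 4 WT samples, 1 sample stood so far from the other 3 that Dixon's test passed its 95% limit, where chance gives about 1.4. Nfe2l2 had a log2 CPM of 7.38 in WT replicate 3 (166 CPM, against 152 to 154 CPM in the other WT samples), and the gap was 0.867 of the whole range because the other 3 lay so close together. Syvn1 had a log2 CPM of 1.82 in WT replicate 2 (3.11 CPM, against 6.84 to 7.34 CPM). Psmd8 had a log2 CPM of 8.17 in WT replicate 2 (289 CPM, against 229 to 236 CPM). Maf, at 28.6 to 55.6 CPM in WT, was not among them.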

How the results depend on the processing

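The log2 fold change of Maf kept its sign in 18 of 18 alternatives, between -1.65 and -1.001. Its call did not, with Maf past 0.05 in 7 of 18 and past 0.25 in 12 of 18, and the causes were not tested. The members past 0.05 numbered 0 with edgeR, without sample weights, with library size alone, with all genes counted, with the batch covariate, with the replicate block and with the length trend removed. The members past 0.25 numbered 0 with edgeR, without sample weights and with all genes counted. With 1 sample left out they numbered 0 to 1 at both thresholds. At 0.05 Maf was lost without WT replicate 1 or 4 or Smchd1-null replicate 1 or 2, and at 0.25 without WT replicate 1 or Smchd1-null replicate 1 or 2. Maff changed sign in 4 of 18 (-0.12 to 0.26), while Mafg (0.02 to 0.34), Nfe2l1 (-0.26 to -0.13) and Nfe2l2 (-0.22 to -0.05) kept theirs.

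The 12 genes past 0.05 and 144 past 0.25 became 1 and 8 with edgeR, 17 and 32 with DESeq2, 1 and 10 without sample weights, 2 and 22 with all genes counted, 9 and 346 with at least 10 counts in every sample, 19 and 74 with the batch covariate, and 9 and 74 with the length trend removed. With 1 sample left out they ranged from 1 to 161 and from 1 to 3153. Genes of the pathway lists past 0.05 went from 0 to 0 to 1 on leaving out a sample, and those past 0.25 to 0 to 18. The single gene at 0.05, Atf4, came without Smchd1-null replicate 3, where 161 of all genes passed. The 18 and 17 genes at 0.25 came without WT replicate 2 and without Smchd1-null replicate 3, where 2924 and 3153 of all genes passed. With at least 10 counts in every sample 1 list gene passed 0.25, beside the 346 of all genes. Nothing about the lists is read from these counts. Batch calls fell from 1652 to 33 with edgeR and 28 without sample weights, and none of Maff, Mafg, Nfe2l1 and Nfe2l2 was among them.

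Whether the replicate numbers pair the samples could not be decided. After group means were removed, same-numbered samples correlated at -0.04, 0.36 and 0.09, and samples of different number at -0.54 to 0.30. Samples also shared batches, which these values do not separate from pairing. With the replicate block 23 genes passed 0.05, and with the block and the length trend removed 44 did. The log2 ratio of Maff to Mafg reversed to -1.01 without division by length. With 1 sample left out the ratios of Nfe2l2 to Nfe2l1 (0.913 to 1.00) and of Nfe2l1 to Maff (1.72 to 1.91) kept their sign in every sample, and the exact permutation adjusted p was 0.0625, from the smallest p of 6 samples, 0.03125, reached by 2 of the 4 steps. At this depth a level under about 1 CPM, as for Mafk, could not be followed.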
